A study of Mus musculus with 60 samples.

Results

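Liver-only circular RNAs are taken here as the circRNAs that appear in the authors' deposited liver table and in none of their tables for brain, heart, kidney and spleen, with both ends matched to the base. There were 287 of them, out of 900 circRNAs in the liver table and 2799 different circRNAs in the 5 tables. They were thus selected on measured values: the authors removed low expression before each table was made, so listing reflects abundance in that organ, and a ring not listed in an organ may still be present there at a low level. The abundances below are for this reason a description, with no test. None of the tables names a gene, and host genes and marker genes of liver cells are not given here.

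Whole livers came from 3 Ftsj1-deficient and 3 wild-type mice, all male and 4 months old, without special treatment. In the labels 4 of the 6 mice form one set of brothers and the other 2 mice another. The sources used here do not give the strain, the kind of Ftsj1 allele or the cells in which it was lost. Each of the 6 liver libraries was sequenced in 2 batches, after a first batch of low read count, and the other organs of these mice were treated alike. Values per library and the depth per library were not analysed here, so no spread between mice can be shown beside the authors' own standard errors.

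A circRNA forms when the spliceosome joins the end of an exon to the start of the same or an earlier exon of the transcript. This back-splicing closes the RNA into a ring without free ends, and such rings outlast most linear RNAs and withstand the exonuclease RNase R, which was used in the library preparation to remove linear RNA. In liver, as in other tissues, most circRNAs arise from protein-coding genes that the tissue transcribes, and their ends lie on exon boundaries. Ftsj1 is an X-linked gene whose product methylates the ribose of nucleotides in the anticodon loop of certain tRNAs.

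The liver-only circRNAs were mostly of low to middle abundance, with a few among the most abundant of the organ. Their mean normalized count in the authors' deposited liver table, a mean over the libraries of both genotypes scaled for library size, ran from 1.05 to 279.8 with a median of 6.86. The median of the 613 other liver circRNAs was 10.5 in the authors' deposited liver table. Liver-only circRNAs made up 31.9% of the liver table by number and 17.7% of its summed mean normalized count. Of the 287, 100 had a mean below 5, 83 reached at least 10 and 7 reached at least 50. Abundance in liver was higher the more tables listed a circRNA, with medians in the authors' deposited liver table of 7.20 for those in 2 tables, 8.67 in 3, 11.8 in 4 and 28.6 in all 5.

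**Figure D1:**
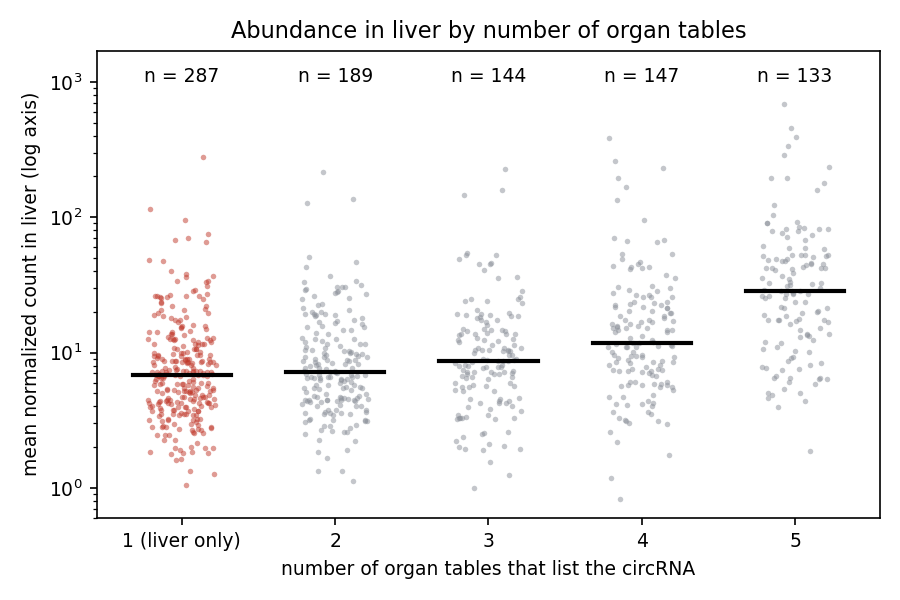
Mean normalized count in liver (log axis) of each circRNA of the liver table, by the number of organ tables that list it; points are circRNAs, bars are medians. The 287 liver-only circRNAs have a median of 6.86 and reach 279.8, and the 133 circRNAs listed in all 5 tables have a median of 28.6.

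A single circRNA led the group by a wide margin. It lay on chromosome 18, 12861677 to 12863174, spanned 1498 bases and had a mean normalized count of 279.8 in the authors' deposited liver table, which placed it 7th in the liver and gave it 8.35% of the summed mean normalized count of all liver-only circRNAs. It overlapped no listed circRNA of any organ, and the nearest ring, of liver and other organs, lay 30561 bases away. Next came chromosome 4, 107912636 to 107921185, at 114.6 in the authors' deposited liver table, and chromosome 6, 135129819 to 135132287, at 94.7. These 3 were the only liver-only circRNAs above 75, and 7 liver-only circRNAs stood among the 50 most abundant of the liver table.

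Ranks 4 to 7 lay close together. The authors' deposited liver table gave 74.9 for chromosome 10, 93925439 to 93925624, and 70.4 for chromosome 1, 172602517 to 172604337. It was 68.2 for chromosome 5, 127721383 to 127734202, and 65.4 for chromosome 17, 33126621 to 33127010, in the same authors' deposited liver table. The circRNA on chromosome 10 spanned only 186 bases and the one on chromosome 17 only 390. Ranks 8 to 10 were chromosome 8, 127887177 to 127888061, at 47.9, chromosome 2, 6341179 to 6341786, at 47.7, and chromosome 14, 31340929 to 31344931, at 40.3, in the authors' deposited liver table. Together the 10 most abundant held 27.0% of the summed mean normalized count of the liver-only circRNAs, and 9 of the 10 shared no end with a circRNA of another organ.

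The genomic span, counted over the genome between its outer bases with introns included, differed little between liver-only and other liver circRNAs at the median, 4131 against 4188 bases. The tails were somewhat heavier on both sides: 25.1% of the liver-only circRNAs spanned under 1 kb, compared with 19.4% of the others, and 6.27% spanned 50 kb or more, compared with 3.26%. Overlapping circRNAs are not independent of each other, and these differences were not tested. The shortest liver-only circRNA, on chromosome 10 from 80006036 to 80006174, spanned 139 bases, and the next were chromosome 9, 103099284 to 103099427, with 144 and chromosome 9, 118977802 to 118977947, with 146. At the other end stood chromosome 13, 45888591 to 46005932, with 117342 bases, chromosome 12, 99257496 to 99355176, with 97681, and chromosome 12, 103695490 to 103784306, with 88817. Short circRNAs were about as abundant as the rest: the 72 under 1 kb had a median mean normalized count of 6.71 in the authors' deposited liver table, and the 18 of 50 kb or more one of 6.33.

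Liver-only circRNAs lay on all autosomes and on chromosome X. Their share of the liver circRNAs of a chromosome ran from 21.2% on chromosome 15 to 42.9% on chromosome 17, on counts of 7 of 33 and 18 of 42. Chromosome X, which carries Ftsj1, held 2 liver-only circRNAs, X 159707448 to 159711651 at a mean normalized count of 5.09 and X 84804181 to 84805013 at 4.65 in the authors' deposited liver table. Both had positive log2 fold changes with wide errors in the authors' deposited liver table, 0.05 (SE 2.33) and 0.73 (SE 2.24).

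Most liver-only circRNAs came from regions where no other organ had a listed circRNA. Of the 287, 226 (78.7%) overlapped no circRNA of another organ table, 10 overlapped one without a common end, and 51 (17.8%) shared exactly 1 of their ends with one. For the 226, the nearest circRNA of another organ lay at a median distance of 272 kb, and for 50 of them it lay within 100 kb. With no gene annotation of the build, a distance does not show whether such neighbours belong to the same gene. Set beside the other organs, the share without overlap was 85.8% of 1101 brain-only, 73.6% of 277 kidney-only, 69.6% of 125 heart-only and 87.1% of 31 spleen-only circRNAs. The tables differ in length, which changes how many partners each set can meet, and the differences were not tested.

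Where an end was shared with another organ, the circles differed by far more than a few bases. No liver-only circRNA had both ends within 5 bases of a circRNA of another organ, and the smallest displacement of the other end was 1202 bases, for chromosome 7, 80045083 to 80045796. Liver-only circRNAs shared an end with brain circRNAs in 41 cases, with kidney in 40, with heart in 25 and with spleen in 12. For 36 of the 51, the partner or a partner was in the liver table as well, so in those the liver listed both the common circle and a variant of its own. Starts were shared in 28 cases and ends in 24, with 1 circRNA counted under both.

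Just outside the selection stood 189 liver circRNAs listed in 1 other organ, 83 of them in kidney, 77 in brain, 22 in heart and 7 in spleen. Some were there by a narrow margin. Chromosome 15, 75920071 to 75920213, had a mean normalized count of 8.69 in liver and 0.762 in kidney in the authors' deposited tables, where the lowest value of the kidney table is 0.693. Others were clearly present: chromosome 5, 89528172 to 89537469, had 5.72 in liver and 145.9 in kidney in the authors' deposited tables. Counts were normalized within each organ, so these pairs of values show listing on either side and not a ratio between organs.

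Liver-only circRNAs that shared an end with a more widely listed liver circRNA were usually the rarer form. Within the liver table there were 48 such pairs, from 36 liver-only circRNAs, and the partner had the higher mean normalized count in 38 of them, with a median ratio of 3.32 in its favour. Liver-only circRNAs had the lower median in the liver table at large, 6.86 against 10.5. The order in the pairs thus goes with the selection, and it was not tested. The widest gap was on chromosome 7, where the liver-only circRNA from 58890715 to 58911806 had 5.43 in the authors' deposited liver table. The ring from the same start to 58896965 had 684.2 there, the highest of the liver, and was listed in all 5 organs. On chromosome 17 the liver-only ring from 79957731 to 79980002 had 26.3 in the authors' deposited liver table, between 386.2 for the ring from the same start to 79966902 and 17.03 for the ring to 79989111, both more widely listed.

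The order was turned on chromosome 5. There the liver-only circRNA from 127721383 to 127734202 had a mean normalized count of 68.2 in the authors' deposited liver table, against 6.88 for the ring from the same start to 127741772. Kidney listed only the longer ring, at 1.88 in the authors' deposited kidney table. A pair of further liver-only rings subdivided the same stretch, 127721383 to 127727852 at 8.40 and 127727747 to 127734202 at 26.2 in the authors' deposited liver table. The abundant ring thus had the outer ends of these smaller ones. For the ring at 26.2 the authors' deposited liver table gives no p-value.

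Most liver-only circRNAs were the only one of their kind in their locus, a stretch of overlapping circRNAs. The 287 fell into 253 loci, of which 227 held 1 liver-only circRNA, 20 held 2, 4 held 3 and 2 held 4. In 205 loci every listed circRNA was liver-only, and 188 of the liver-only circRNAs overlapped no other listed circRNA at all. Within the liver table, 29.6% of the liver-only circRNAs and 25.8% of the 613 others overlapped another liver circRNA. Standing alone among liver circRNAs was thus not particular to the liver-only set. The loci with liver-only circRNAs alone and more than 1 of them numbered 17, and in 16 of these 17 at least 1 start or end was used again. Shared ends were not particular to the liver-only set either. Of the liver-only circRNAs 26.5% shared an end with another liver circRNA, and of the 613 others 24.3% did. On chromosome 14 the rings from 31340929 to 31344931 and to 31341885 had 40.3 and 26.7 in the authors' deposited liver table, and on chromosome 14, from 21419139, the rings to 21431685 and 21473657 had 22.2 and 20.7. Most uneven were the rings on chromosome 4 from 107912636, where the one ending at 107921185 had 114.6 and the one ending at 107931660 had 2.93 in the authors' deposited liver table.

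The locus on chromosome 2, 6341179 to 6413820, held 4 liver-only circRNAs among 5. All rings from the start at 6341179 were liver-only, and the short one, to 6341786, had 47.7 in the authors' deposited liver table while those to 6399366 and 6413820 had 5.68 and 7.18. From a second start at 6395866, the ring to 6399366 had 24.7 in the authors' deposited liver table and 3.15 in the brain table, whereas the ring to 6405130 was liver-only at 7.24. Brain thus used the downstream part of this locus and had no listed ring from the upstream start.

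On chromosome 6, 99237306 to 99437411, 4 of 9 circRNAs were liver-only. The start at 99412177 was used in 4 liver rings: the ring to 99433541 had 42.0 in the authors' deposited liver table and was listed in 4 organs, and those to 99416403, 99416417 and 99437411 were liver-only at 8.72, 7.28 and 7.20. The first pair of these ended only 14 bases apart, the closest ends of any pair of liver circRNAs that involved a liver-only one and shared the other end. Next closest were the rings on chromosome 4 from 134636924, which ended 66 bases apart at 134640506 and 134640572 and had 26.0 and 9.44 in the authors' deposited liver table. The remaining liver-only ring of the chromosome 6 locus, 99237306 to 99285399, was rare at 2.84 in the authors' deposited liver table.

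The locus on chromosome 17, 13144155 to 13167544, consisted of liver-only rings alone, all of low abundance. Its rings from 13144155 ended at 13147525 and 13167544, with 7.78 and 4.26 in the authors' deposited liver table, and another ring ran from 13146225 to 13167544 with 3.76. Each ring thus had an end in common with another of the 3. The locus on chromosome 12, 99175720 to 99355176, held 3 liver-only rings as well, at 12.5 (from 99175720 to 99257560), 20.8 (from 99257496 to 99355176) and 7.50 (from 99307681 to 99355176) in the authors' deposited liver table. Brain listed another ring with the end at 99355176, of only 557 bases, at 2.76 in the authors' deposited brain table. The liver table did not list it, so the organs had that end in common and no ring.

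**Figure D2:**
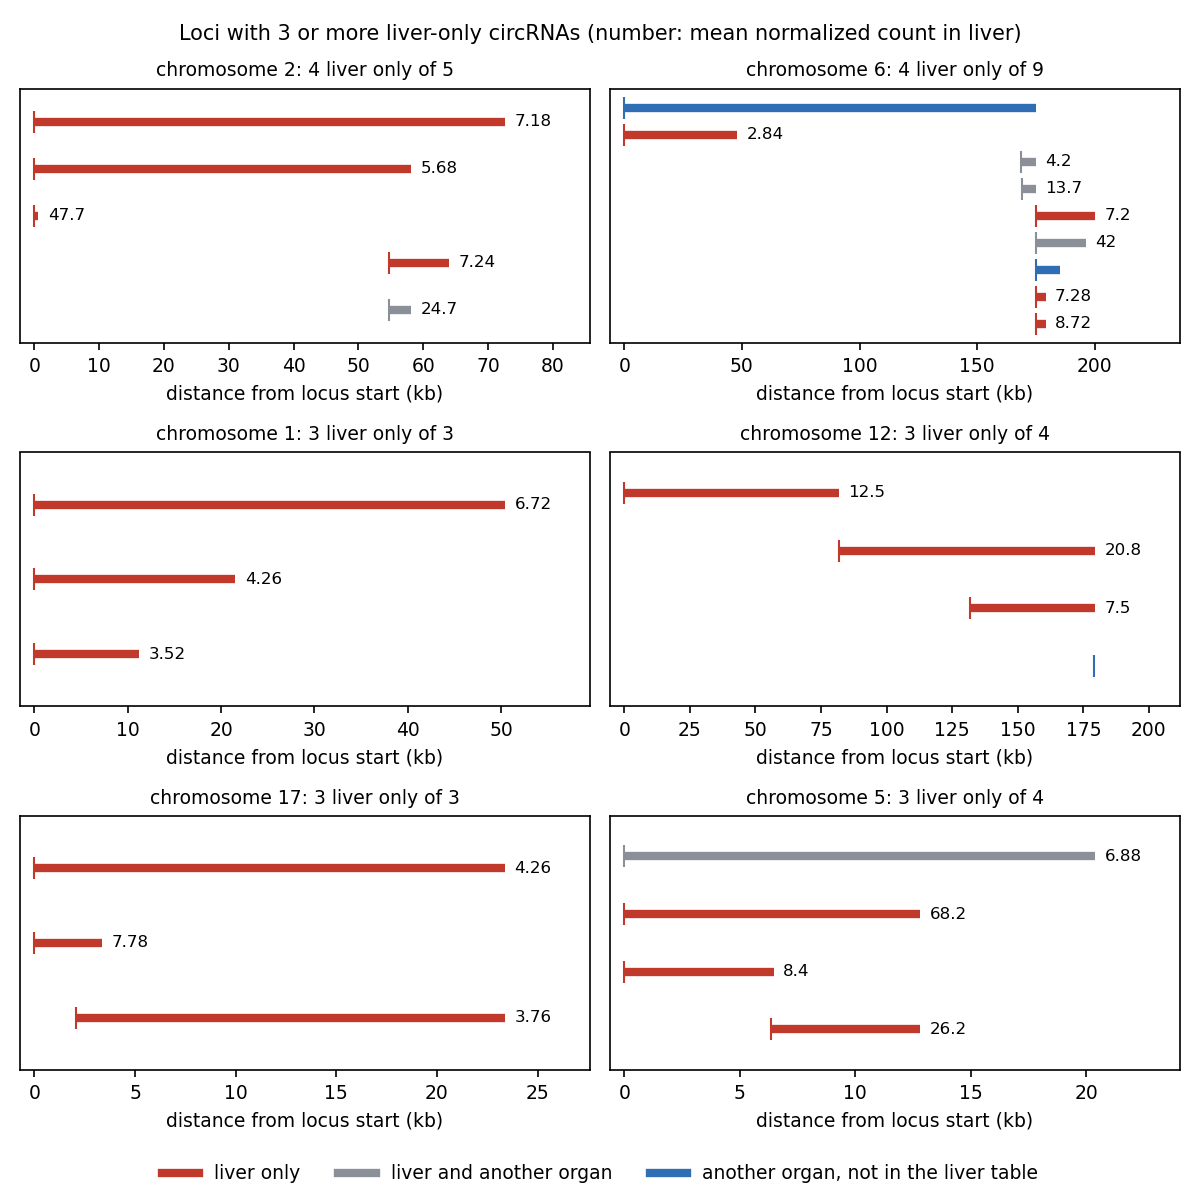
The 6 loci with 3 or more liver-only circRNAs, each ring drawn from its first to its last base against the distance from the locus start in kb, with a tick at its first base and its mean normalized count in liver at the right. Rings of a locus reuse the same starts or ends, and the abundant ring is the 47.7 one on chromosome 2, the 42.0 one on chromosome 6 and the 68.2 one on chromosome 5; a brain ring of 557 bases on chromosome 12 shows as a tick alone.

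Where 2 liver rings overlapped in a staggered way, each with an end inside the other, the overlap was often short. There were 29 such pairs with at least 1 liver-only circRNA, and in 17 of them the overlap measured 65 to 130 bases, while the next larger one measured 1301. On chromosome 12 the ring from 99175720 to 99257560 ended 65 bases into the ring from 99257496 to 99355176. On chromosome 5 the overlap of the smaller rings described above was 106 bases, and on chromosome 6 the overlap at 99412177 to 99412306 was 130 bases and occurred in 6 of the 17 pairs. A short stretch of this kind, at the end of one ring and the start of the next, was thus used by both rings.

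The genotypes, Ftsj1-deficient and wild-type, were compared through the authors' DESeq2 test in liver. The sources used here do not say which genotype is the numerator, so signs stand as deposited and are not read as a direction in either genotype. None of the 287 liver-only circRNAs passed the 0.05 limit on the adjusted p of the authors' DESeq2 test, where 1 of 883 tested liver circRNAs did (0.113%). At an unadjusted p below 0.05 stood 23 of the 283 tested liver-only circRNAs (8.13%), compared with 9.06% of the liver table. All 23 had a negative sign, which 8.61% of the liver table had at this limit. With a positive sign there were none, beside 0.453% of the liver table. These shares lie near those of the table as a whole. For 4 liver-only circRNAs the authors' deposited liver table gives no p-value, and for 131 of low mean it gives one without its adjusted value, so these could not be called.

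The median log2 fold change of the liver-only circRNAs was -0.17 in the authors' deposited liver table, and that of the 613 others was -0.23. Negative signs made up 55.4% and 58.2% of the 2 sets. Standard errors were larger for the liver-only circRNAs, with a median of 2.42 against 1.93, which makes the half-width of a 95% interval 4.74 on the log2 scale at the median. In no liver-only circRNA did the 95% interval lie wholly within a 2-fold change either way. The same held for nearly all of the 613 others, where 3 (0.489%) had such an interval. The low number of calls is thus no evidence that the genotypes are alike for these circRNAs.

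Among the abundant liver-only circRNAs the estimates were closer. For the leader on chromosome 18 the authors' deposited liver table gave a log2 fold change of -0.09 (SE 0.52), and its 95% interval ran from -1.12 to 0.93. The authors' deposited liver table had -0.16 (-1.58 to 1.26) for the second, on chromosome 4. The circRNA of 390 bases on chromosome 17 had 0.20 (-1.56 to 1.96) in the authors' deposited liver table. All 10 most abundant had intervals that held 0, and 5 of the 10 were negative.

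**Figure D3:**
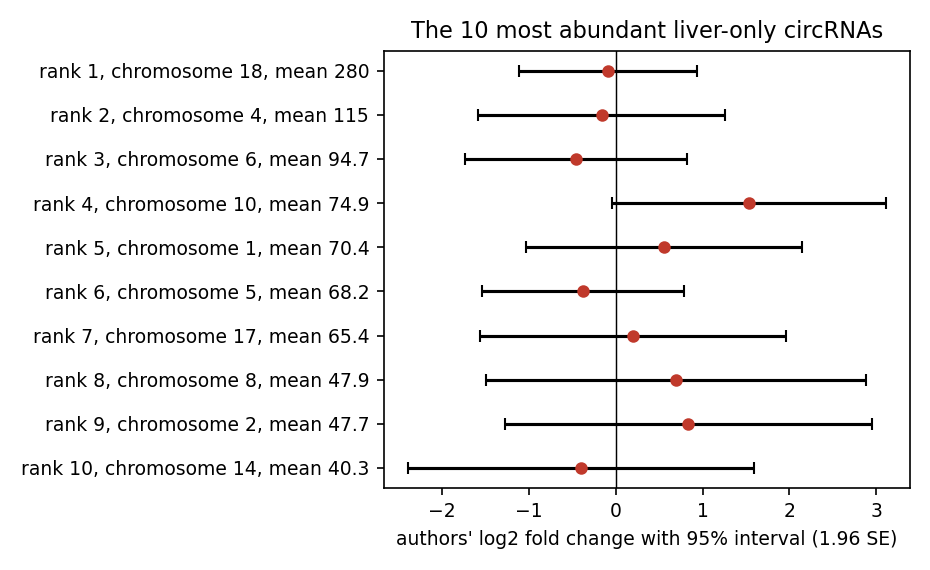
Log2 fold change of the 10 most abundant liver-only circRNAs in the authors' deposited liver table, sign as deposited, with bars of 1.96 SE to each side. Every interval includes 0, and the circRNA on chromosome 10 at rank 4, at 1.53, comes nearest to leaving it out.

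The positive side was led by that short circRNA on chromosome 10, whose log2 fold change was 1.53 (SE 0.81, unadjusted p = 0.0574, adjusted p = 0.732 in the authors' DESeq2 test). The authors' deposited liver table had 2.86 (SE 1.54) for the ring on chromosome 3 from 94967795 to 94971095, and 4.32 (SE 2.47) for the one on chromosome 9 from 59344054 to 59361752. It had 1.15 (SE 0.81) for the ring on chromosome 6 from 122206272 to 122207745, and 3.82 (SE 2.72) for the one on chromosome 12 from 86311956 to 86315835. Their mean normalized counts ran from 4.21 on chromosome 12 to 74.9 on chromosome 10 in the authors' deposited liver table, and none of these 5 had an unadjusted p below 0.05.

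On the negative side the 5 leading circRNAs had like means and like fold changes. By the authors' DESeq2 test, chromosome 16, 16043165 to 16048640, had -6.22 on the log2 scale (SE 1.90, adjusted p = 0.0866) at a mean normalized count of 9.36. In the authors' deposited liver table the values were -6.11 (SE 1.96, mean 8.68) for the ring on chromosome 14 from 6175090 to 6178992, and -6.10 (SE 1.96, mean 8.66) for the ring on chromosome 11 from 106312532 to 106314314. Further down stood chromosome 3, 121558650 to 121566015, whose value was -6.31 (SE 2.03) in the authors' deposited liver table, and chromosome 16, 91461086 to 91461710, whose value was -6.00 (SE 1.99, adjusted p = 0.0971 by DESeq2). These 5 were the liver-only circRNAs with an adjusted p below 0.1, a limit passed by 1.93% of the tested liver circRNAs. Counted over circRNAs with an adjusted p, they were 5 of 152 (3.29%), beside 17 of 587 (2.90%) in the liver table. All 5 lost this call with Benjamini-Hochberg adjustment over all 883 liver p-values, where their adjusted p was 0.130 to 0.146. None of them overlapped another listed circRNA.

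All 23 negative circRNAs below an unadjusted p of 0.05 belonged to a narrow band in which the size of the fold change followed from the mean alone. In this band, called the plateau here, the size of the log2 fold change less log2 of the mean was 2.90 to 3.00, and the next liver-only circRNA stood at 1.79. Counts in a single genotype only would take this arithmetic form. Whether that held was not tested, since no values per library were at hand. Fold changes there carry little beyond the mean, and their sizes are not compared. The plateau held 42 liver-only circRNAs (14.6%) and 93 of the other 613 (15.2%), all with a negative sign. Their mean normalized counts in the authors' deposited liver table ran from 1.27 to 10.02 among the liver-only circRNAs. Without them the median log2 fold change of the liver-only circRNAs was 0.13 and none had an unadjusted p below 0.05. The part of the authors' filter on low expression in these values was not tested.

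**Figure D4:**
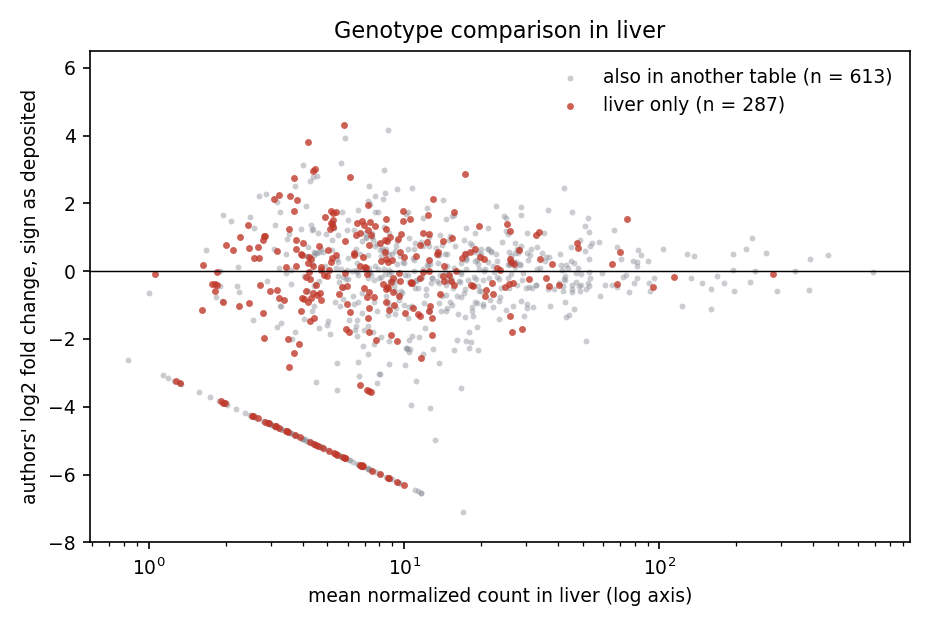
Log2 fold change in the authors' deposited liver table, sign as deposited, against the mean normalized count (log axis), 1 point per circRNA. The slanted line of points below the cloud is the plateau, with 42 liver-only and 93 other circRNAs, and it has no positive counterpart.

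Abundance bore on the plateau, so liver-only and other circRNAs were set side by side within 4 groups of 225 liver circRNAs ordered by mean. In the lowest group, with mean normalized counts of 0.825 to 4.98, 24 of 100 liver-only circRNAs were on the plateau (24.0%, exact 95% binomial interval 16.0% to 33.6%), compared with 56 of 125 others (44.8%, 35.9% to 54.0%). In the second group the shares were nearly level, 18.6% of 86 and 19.4% of 139. In the third they were 3.17% of 63 and 6.17% of 162, and the highest group held none in either set, 0 of 38 and 0 of 187. The intervals take circRNAs as independent, which they are not, since all come from the same 6 mice, and the difference in the lowest group was not tested.

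**Figure D5:**
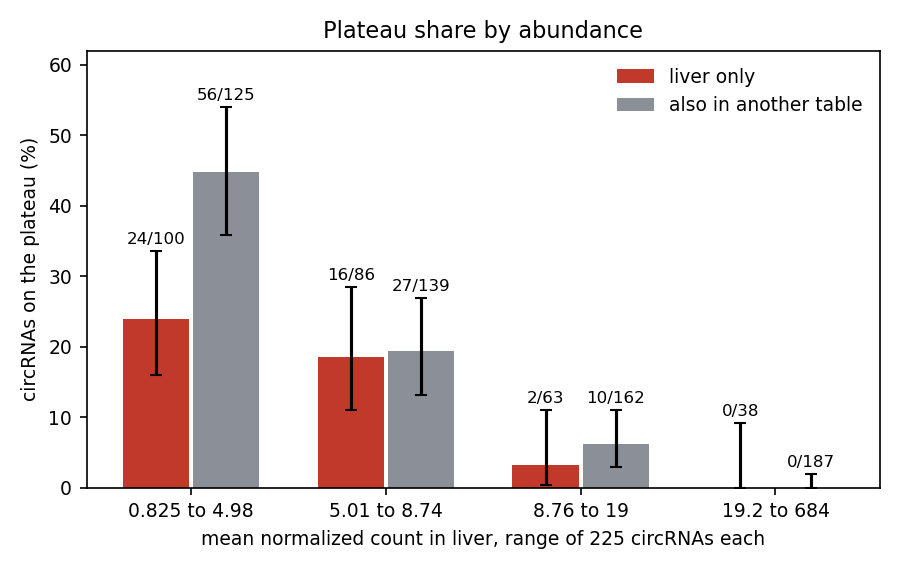
Share of circRNAs on the plateau in each of 4 groups of 225 liver circRNAs ordered by mean normalized count, liver-only beside other circRNAs, with counts and exact 95% binomial intervals over circRNAs. The share goes from 24.0% to 0% in the liver-only circRNAs and from 44.8% to 0% in the others.

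Rings of the same locus did not always share the plateau. On chromosome 1 all 3 liver-only rings from 51852162 were on it, at means of 6.72, 4.26 and 3.52. Their log2 fold changes in the authors' deposited liver table were -5.72 (to 51902593, SE 2.15), -5.03 (to 51873702, SE 2.49) and -4.75 (to 51863360, SE 2.68). No other ring was listed at that locus. The widest contrasts in abundance with a more widely listed partner were on chromosomes 7 and 6. The ring on chromosome 7 from 58890715 to 58911806 had -5.40 (SE 2.26) in the authors' deposited liver table and its partner of 684.2 had -0.03 (SE 0.44). On chromosome 6 the liver-only rings that end at 31158084, from 31070298 and 31140829, had -5.51 (SE 2.25) and -4.49 (SE 2.80) in the authors' deposited liver table. The ring from 31116664 to the same end had -0.14 (SE 0.50) at a mean of 168.0. Of the 2 liver-only rings on chromosome 12 that end at 99355176, the one from 99307681 was on the plateau, at -5.89 (SE 2.03). The one from 99257496 was off it, at -0.56 (SE 1.07) in the authors' deposited liver table. Sizes on the plateau follow from the mean, so these values show which rings were on it and not a difference in fold change. There were 13 pairs of a liver-only plateau ring and a more widely listed partner with a common end, from 8 liver-only rings. In 12 of the 13 the partner had the higher mean normalized count. Liver-only plateau rings had means of at most 10.02, so a higher partner was likely from the outset. In 3 of the 13 the partner was on the plateau too. The ring from 31098367 was counted there under both liver-only rings that end at 31158084. The partners off the plateau had log2 fold changes from -2.44 to -0.02 in the authors' deposited liver table, so not all of them lay near 0. Whether rings of 1 locus differ in their fold changes could not be tested without values per library.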

How the data were processed

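CircRNAs were sequenced in 5 organs of 6 mice, in 60 samples that are 30 libraries with 2 sequencing batches each. Per the labels' protocols, RNA was depleted of ribosomal RNA, polyadenylated, digested with RNase R and sequenced on an Illumina NovaSeq. Per the submitters' processing notes, the tools include BWA 0.7.17-r1188 and DESeq2, and the build is GRCm39. The circRNA caller, the model formula, the filter limit and the handling of batches were not given in the sources used here. If the batches entered the fit as separate samples, the standard errors would be too small.

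The authors deposited 1 table of their own comparison per organ. Its columns, per the file headers, are a mean abundance signal (the mean normalized count), a log2 fold change with its SE on the log2 scale, a test score (the Wald statistic), a p-value and an adjusted p-value. The deposited scores, p-values and adjusted p-values were recomputed from one another and matched to rounding. No count per library was among the files used, so no model was fitted here, no mouse could be left out and no depth per sample can be given. The tests are the authors' DESeq2 tests as deposited. The deposited p-values come from the normal distribution although each genotype has 3 mice.

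Positions are those of the tables. The annotation at hand is for GRCm38: start and end met its exon edges for 10 of the 287 liver-only circRNAs as written and for 0 with 1 base added to the start, so starts were read as counted from 1. Positions were not converted, no host gene or sequence is given, and the host gene lists could not be used.

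Computed here with Python 3.11.15 and pandas 2.3.3 were set membership, spans, shared ends, loci (overlapping circRNAs joined), 95% intervals (1.96 SE) and medians; the functions were tested on simulated data. Named were the 10 most abundant liver-only circRNAs, the 5 with the smallest p per sign, the 3 longest and shortest, those in loci with 3 or more, and others that share their ends. The rings on chromosomes 4, 5, 6, 7, 14, 15, 17 and X outside these were chosen after their values were seen. The members and lists were chosen with earlier results of these data known. The plateau limit was 2.5, inside an empty range.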

Additional observations from a re-analysis of the deposited data

How the results depend on the processing

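The 287 liver-only circRNAs stayed 287 when ends within 5 bases counted as a match, and were 236 when 1 shared end, and 226 when any overlap, counted as shared. With a mean normalized count of at least 10 there were 83, with 1 negative circRNA at an unadjusted p below 0.05 and 1.20% on the plateau. The 23 negative circRNAs became 9 at an unadjusted p below 0.01 and 0 without the plateau. No circRNA with a positive sign came below 0.05 in the full set, and these settings only narrow it, so they could not add any. At an adjusted p below 0.1 the authors' DESeq2 test gave 5 in place of 0, and with Benjamini-Hochberg adjustment over all 883 liver p-values none passed 0.05 and these 5 moved from 0.0866 to 0.0971 up to 0.130 to 0.146. The median log2 fold change of -0.17 turned to 0.13 without the plateau, since that removes 42 negative circRNAs and no positive one. It was -0.01 at means of at least 10, -0.09 when weighted by the inverse squared SE and -0.17 without circRNAs that share an end with another organ. Of 42 alternatives, 7 moved the value, and 35 did not: counts stayed within 1.5 times, medians and shares within their 95% interval, and adjusted p-values on their side of 0.05. The intervals run over circRNAs, which are not independent, and do not measure the spread between mice. The 35 include the settings for the positive sign and the plateau limit lowered to 2, still inside the empty range. In these the outcome was fixed in advance. A further 17 of the 35 are adjusted p-values of single named circRNAs, above 0.05 in both settings, so the count of 35 is no measure of robustness. No paired analysis was possible because the tables hold no values per library, and for the same reason no mouse could be left out. The host gene lists, with their alternative, were not run. Abundance limits precision: the median SE was 2.42 over all liver-only circRNAs and 0.81 over the 10 most abundant.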

Other observations

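The liver-only circRNAs without a p-value did not have low means. Their 4 positions, chosen after their values were seen, were chromosome 2, 26875435 to 26877121, chromosome 5, 127727747 to 127734202, chromosome 8, 41468425 to 41475631, and chromosome 2, 30164482 to 30164735. Their mean normalized counts in the authors' deposited table were 36.9, 26.2, 19.6 and 11.6, all above the liver-only median of 6.86, and their log2 fold changes were -0.44, 0.27, 1.33 and 0.77. The table gives no reason for the missing p-values. Whether a single library carries these means could not be tested without values per library.

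A pair of very short rings on chromosome 17, 40158545 to 40158740 and 40158654 to 40158803, spanned 196 and 150 bases and overlapped by 87. Their mean normalized counts were 3.53 and 3.71 in the authors' deposited table, and their log2 fold changes -2.81 (SE 2.95) and -2.43 (SE 2.93). They formed the 1 locus of the 17 with several liver-only circRNAs alone in which no end was used again. The nearest circRNA of another organ lay 1100 bases away from the second ring and nearer to the first. It ran from 40157395 to 40157554 and was listed in kidney and in liver, with a mean normalized count of 29.5 in the authors' deposited liver table.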
